A study of Mus musculus with 4 samples.

Results

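The PDGF ligands and receptors are 6 genes, chosen by their symbols: the 4 ligands Pdgfa, Pdgfb, Pdgfc and Pdgfd and the 2 receptors Pdgfra and Pdgfrb. All 6 were among the 28693 genes counted in mammary gland single-cell libraries from 4 mice. Both groups carried floxed alleles of the Hippo kinase genes Lats1 and Lats2 and a Cre-dependent EYFP reporter, and both received 2 mg of tamoxifen on 5 days, with glands taken 7 days after the last dose. The 2 CTL mice, WT in the labels, were Lats1f/f and Lats2f/f, heterozygous for R26-lsl-EYFP and without Cre. The 2 LATS1/2-KO mice also carried Krt8-CreERT2, a tamoxifen-inducible Cre driven by the luminal keratin gene Krt8, and differed from each other in the reporter, which was heterozygous in replicate 1 and homozygous in replicate 2. Each library came from 1 adult nulliparous mouse and held live-sorted cells of the third, the fourth and the fifth gland pairs.

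PDGF ligands are secreted as dimers that bring 2 receptor chains together and switch on their tyrosine kinase domains. PDGF-A binds the alpha receptor, PDGF-B binds both receptors, and PDGF-C and PDGF-D are secreted in a latent form that proteases activate. In many organs epithelial or endothelial cells make the ligands and mesenchymal cells carry the receptors: PDGFRα marks fibroblasts, and PDGFRβ marks fibroblasts and the pericytes that PDGF-B from endothelium recruits. LATS1 and LATS2 phosphorylate YAP and TAZ, coactivators that reach DNA through TEAD factors. The comparisons therefore ask which cells held ligand and receptor transcripts, and which of these levels differed between CTL and LATS1/2-KO mice.

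In the mouse genome (GRCm38, GENCODE M21) Pdgfa (ENSMUSG00000025856) lies on the minus strand of chr5:138976014-138997370 and Pdgfb (ENSMUSG00000000489) on the minus strand of chr15:79995874-80014977. The other genes shown are on plus strands: Pdgfc (ENSMUSG00000028019) at chr3:81036416-81214040, Pdgfd (ENSMUSG00000032006) at chr9:6168584-6378850 and Pdgfra (ENSMUSG00000029231) at chr5:75152292-75198215. Promoter windows are shown for the ligand that rose most clearly in knockout luminal cells and for the one that fell, because their levels moved in opposite directions in luminal ER- cells. The windows are RefSeq's on GRCm38.p6, 5′ to 3′ along the gene's strand, and capitals mark the TEAD core CATTCC or its reverse complement GGAATG. The Pdgfa window is the more upstream of 2 listed, chr5:138994895-138995194 (minus strand), and the Pdgfc window is chr3:81036166-81036465 (plus strand).
Pdgfa: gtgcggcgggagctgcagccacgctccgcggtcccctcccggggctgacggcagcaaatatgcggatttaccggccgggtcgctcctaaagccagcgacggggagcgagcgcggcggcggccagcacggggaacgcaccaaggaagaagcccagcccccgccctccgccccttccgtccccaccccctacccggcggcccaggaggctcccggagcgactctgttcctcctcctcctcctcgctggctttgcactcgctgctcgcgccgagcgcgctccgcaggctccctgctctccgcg
Pdgfc: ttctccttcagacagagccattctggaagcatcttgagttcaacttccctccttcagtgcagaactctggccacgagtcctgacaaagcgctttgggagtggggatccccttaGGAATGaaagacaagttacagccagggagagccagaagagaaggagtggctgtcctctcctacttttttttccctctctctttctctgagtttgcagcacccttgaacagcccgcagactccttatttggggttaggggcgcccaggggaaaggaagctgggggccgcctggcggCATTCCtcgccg
The Pdgfc window held 2 TEAD cores, at positions 114 and 289 counted from 1 at the window's 5′ end. Neither Pdgfa window held one, and the windows of Pdgfd and Pdgfra held none. Of 32851 windows of this length in the table, 4817 (14.7%) held at least 1 such core. A match of these letters is a description of the window and not evidence of binding.

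After cells with 500 or fewer genes or at least 20% mitochondrial UMIs were left out, 18200 of 20324 barcodes remained, 3515 to 5272 per library, with medians of 5962.5 to 10141 UMIs per cell. Pairs of libraries shared 4 to 17 barcodes. Cells were clustered with the 6 members left out of the clustering genes, and clusters were named from marker genes. These names gave luminal ER- (9412 cells), luminal ER+ (3076), basal (1182), iCAF-like (951) and myCAF-like (443) fibroblasts, perivascular-like PVL cells (141), endothelial-like (605), macrophage-like (795) and lymphocyte-like cells (432). One epithelial cluster of 657 LATS1/2-KO cells, led by Msln and Crct1, matched no class and is given by its leading genes. Another 482 epithelial cells, with a median of 1647.5 UMIs, fell in low-depth clusters. Luminal ER- was their best marker list, but a depth rule left them unnamed and untested. CTL glands held few stromal cells: 60 and 25 fibroblasts, 18 and 7 PVL-like cells, and 10 and 9 macrophage-like cells. Lats1 in luminal ER- cells measured 25.6 and 25.3 CPM (UMIs per 1000000 UMIs of the class) in CTL and 13.4 and 15.4 in LATS1/2-KO. Lats2 measured 15.0 and 16.7 in CTL and 27.5 and 29.4 in LATS1/2-KO. Reads were 3′ tags and the position of the deleted exons relative to them was not analysed here, so transcript counts are no check of either deletion. EYFP was seen in 0.272% and 0.379% of CTL luminal ER- cells and in 22.7% and 27.6% of LATS1/2-KO ones.

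Levels are CPM of the summed UMIs of a class in a library. They compare a gene across classes, not 1 gene with another. In both conditions transcripts of Pdgfa, Pdgfb and Pdgfc came mostly from epithelium, and fibroblasts and PVL-like cells had the highest receptor levels. Epithelial cells held 92.2% to 96.4% of a library's Pdgfa UMIs, 94.6% to 97.7% of its Pdgfb UMIs and 90.95% to 100% of its Pdgfc UMIs, and made up 93.5% and 95.6% of CTL cells and 77.7% and 63.7% of LATS1/2-KO cells. The CTL shares of Pdgfa, 95.1% and 96.4%, and the Pdgfb share of CTL replicate 2, 95.7%, were thus close to the share of cells. Luminal cells had medians of 8195 (ER-) and 13070.5 UMIs (ER+), against 4809.5 in basal, 4659 in iCAF-like, 4106 in endothelial-like and 3123 in macrophage-like cells. A share of UMIs weighs deeper cells more, and the epithelial share of all UMIs is not given here. Pdgfd was split: epithelial cells held 47.3% to 61.5% of its 30 to 110 UMIs per library. Fibroblasts and PVL-like cells held 71.8% and 84.5% of the Pdgfrb UMIs in CTL libraries and 88.5% and 92.0% in LATS1/2-KO libraries, and 34.6% and 39.8% of the Pdgfra UMIs in CTL against 85.3% and 89.95% in LATS1/2-KO. These cells made up 0.910% and 1.59% of CTL cells and 8.47% and 19.8% of LATS1/2-KO cells, shares that dissociation and the live-cell sort can also set. Libraries held 84 and 39 Pdgfrb UMIs in CTL and 711 and 1347 in LATS1/2-KO.

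**Figure D1:**
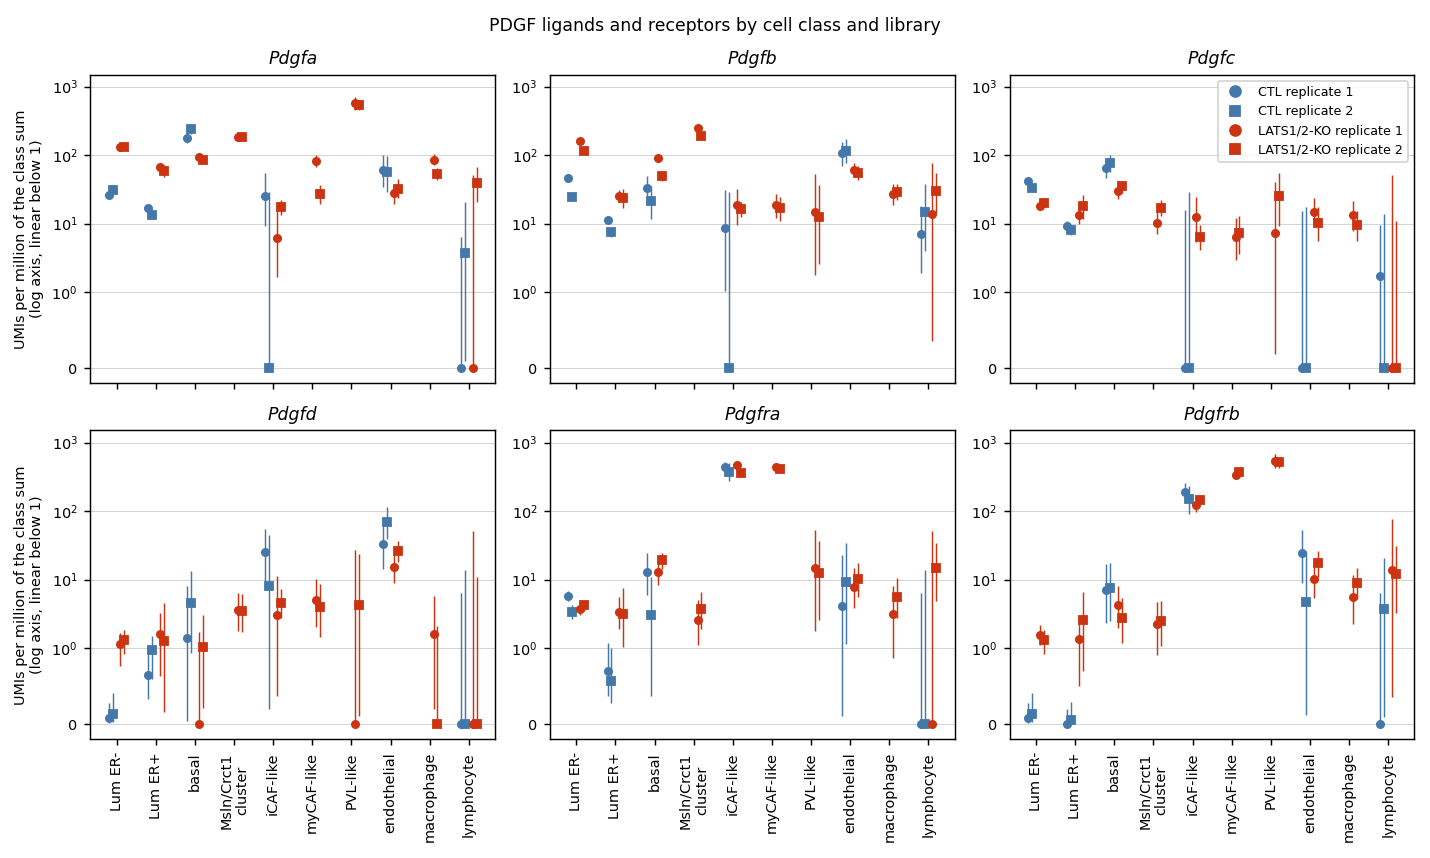
CPM of each class sum (log axis, linear below 1) for the 6 members in each class and library with at least 20 cells, CTL in blue and LATS1/2-KO in red; bars are 95% Poisson intervals and cover counting error only. Pdgfa and Pdgfb are higher in all LATS1/2-KO than CTL luminal libraries, Pdgfra is high in iCAF-like and myCAF-like cells, and Pdgfrb is highest in PVL-like cells.

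In luminal ER- cells, the progenitor-type lineage of the gland, the ligand genes Pdgfa and Pdgfb rose and Pdgfc fell. Pdgfa measured 26.3 and 30.7 CPM in the CTL libraries (689 and 665 UMIs) and 131 CPM in each LATS1/2-KO library (3169 and 3570 UMIs), means of 28.5 ± 3.07 and 131 ± 0.228 (SD, n = 2 each). The groups did not overlap, and the log2 fold change was 1.87 (SE 0.10, adjusted p = 1.475e-05 by edgeR's quasi-likelihood test over all genes). Pdgfb varied more within each group, with 47.0 and 24.1 CPM in CTL and 161 and 114 in LATS1/2-KO. Its groups also did not overlap, with a log2 fold change of 1.615 (SE 0.30, edgeR adjusted p = 0.00301). Pdgfc measured 41.2 and 33.4 CPM in CTL against 18.1 and 19.7 in LATS1/2-KO, so that every knockout library lay below every control one, and it fell by 1.32 on the log2 scale (SE 0.12, edgeR adjusted p = 0.000127). The class came from different clusters in the groups: 2939 and 2099 of the 2942 and 2109 CTL cells lay in 1 cluster led by Plet1 and Cck, and LATS1/2-KO cells in 2 clusters, led by Wfdc3 and Wfdc18 and by Ankrd1 and Ube2c.

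In the test of luminal ER- cells 5 of the 6 members passed an adjusted p of 0.05, where 64.8% of all 13597 genes tested passed, so the count itself is near the background. The other 2 that passed were scarce: Pdgfd had 2 and 3 UMIs in CTL and 28 and 36 in LATS1/2-KO (log2 fold change 3.18, SE 0.47, edgeR adjusted p = 0.0009945), and Pdgfrb 2 and 3 against 38 and 36 (3.395, SE 0.47, edgeR adjusted p = 0.0007285). Both remained near 1 CPM in knockout cells. Free RNA in the droplets, estimated from collagen transcripts, would give 1.44 and 1.78 CPM of Pdgfrb in the LATS1/2-KO libraries, where 1.57 and 1.32 were measured. Measured Pdgfrb was above that estimate in replicate 1 and below it in replicate 2. The same estimate for Pdgfd was 0.158 and 0.145 CPM against measured levels of 1.16 and 1.32. Pdgfra measured 5.77 and 3.37 CPM in CTL and 3.73 and 4.22 in LATS1/2-KO. These levels overlapped before TMM scaling and not after it, and the test gave a log2 fold change of -0.55 (SE 0.28, edgeR adjusted p = 0.12). Pdgfra passed without the low-count filter (-0.53, edgeR adjusted p = 0.04904), and without CTL replicate 2 its log2 fold change was -0.88. The summed level of 7 fibroblast markers in the class was 21.7 and 8.95 CPM in CTL and 211 and 199 in LATS1/2-KO, none of the 7 at 0, and its part in the receptor values was not tested beyond the free RNA estimate. Basal markers in the class also differed, summing to 34.6 and 27.7 CPM in CTL and to 1679 and 1365 in LATS1/2-KO.

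The share of luminal ER- cells with a UMI moved as the levels did. Pdgfa was seen in 19.1% and 23.1% of CTL cells and in 54.7% and 58.5% of LATS1/2-KO cells. With every cell thinned to 2000 UMIs, which left out 25 to 104 shallower cells per library, these shares were 5.04% and 6.38% in CTL and 20.6% and 21.0% in LATS1/2-KO. Thinned Pdgfb shares were 7.72% and 4.51% against 24.3% and 14.5%, and thinned Pdgfc shares 8.10% and 7.20% against 4.58% and 4.78%. In lymphocyte-like cells, taken as cells that should lack the gene, the unthinned Pdgfa shares were 0 of 188 cells (exact binomial upper bound 1.94%) and 1.27% in CTL, and 0 of 35 cells (upper bound 10.0032%) and 7.69% in LATS1/2-KO. Their medians were 1557 to 3082 UMIs per cell, against 6790 to 9627 in luminal ER- cells.

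Within the knockout epithelium the ligands were graded by cluster (the plot of ligand levels in epithelial clusters). Cluster values are descriptive, since the clusters were made from the same cells. Pdgfa measured 81.1 and 96.2 CPM in the LATS1/2-KO cluster led by Wfdc3 and Wfdc18 and 156 in each library in the cluster led by Ankrd1, a YAP/TAZ target gene, and Ube2c, a mitotic gene. It measured 182 and 183 CPM in the cluster led by Msln and Crct1. Pdgfb followed the same order, with 101 and 57.2 CPM, then 191 and 156, then 252 and 193. Replicate 1 was above replicate 2 for Pdgfb in each of these clusters. Pdgfc had the opposite order over the luminal ER- clusters: 29.8 and 27.7 CPM in the Wfdc3 cluster, below the 41.2 and 33.4 of the CTL cluster, and 12.4 and 14.0 in the Ankrd1 cluster.

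**Figure D2:**
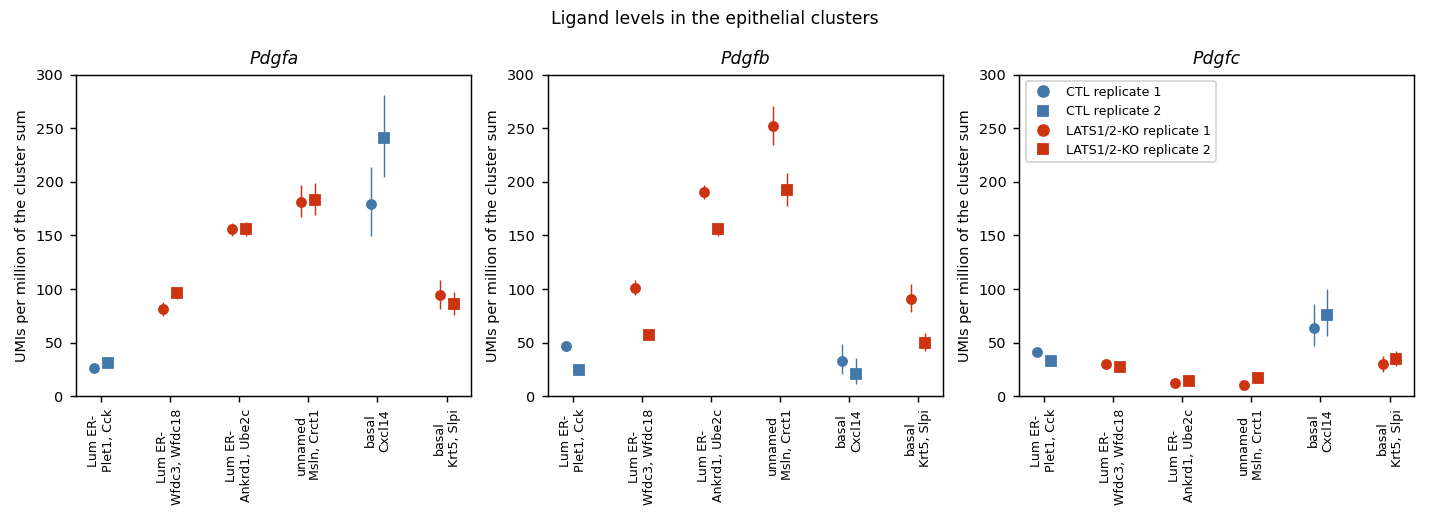
CPM of the cluster sum for Pdgfa, Pdgfb and Pdgfc in the luminal ER- clusters, the unnamed cluster and the basal clusters, by library; bars are 95% Poisson intervals. Pdgfa is lowest in the CTL luminal cluster and its mean is highest in CTL basal cells, where replicate 1 (180) lies just below the Msln and Crct1 cluster (182 and 183), and the LATS1/2-KO basal cells lie below CTL basal cells for Pdgfa and Pdgfc and above them for Pdgfb.

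In luminal ER+ cells, the hormone-sensing lineage, Pdgfa measured 16.9 and 13.5 CPM in CTL and 67.2 and 59.3 in LATS1/2-KO. The groups did not overlap and the log2 fold change was 2.07 (SE 0.16, edgeR adjusted p = 0.000879). Pdgfb rose from 11.2 and 7.497 CPM to 25.4 and 23.6, a log2 fold change of 1.39 (SE 0.24, edgeR adjusted p = 0.00975). The free RNA estimate of Pdgfb was 0.936 and 0.546 CPM in CTL and 11.5 and 6.66 in LATS1/2-KO. With it subtracted, 10.6 and 7.19 CPM were left in CTL and 15.1 and 18.2 in LATS1/2-KO, and the rise was not tested on these values. Pdgfc, which fell in luminal ER- cells, rose here from 9.25 and 8.11 to 13.1 and 17.9 CPM (0.77, SE 0.215, edgeR adjusted p = 0.0412). Pdgfra was counted only 13 and 11 times in CTL and 15 and 5 times in LATS1/2-KO, at 3.40 and 3.19 CPM in the latter, where the free RNA estimate was 2.40 and 3.54 CPM. Its log2 fold change was 2.37 (SE 0.46, edgeR adjusted p = 0.0132). Here 4 of 5 tested members passed, against 28.7% of 12518 genes. LATS1/2-KO replicate 1 gave 489 knockout cells and replicate 2 gave 145. Without replicate 1 only Pdgfa of the members passed (edgeR adjusted p = 0.0176), and Pdgfc also failed to pass without LATS1/2-KO replicate 2 (edgeR adjusted p = 0.1086) or CTL replicate 2 (0.08364) and with DESeq2 (0.1122). CTL cells lay mainly in the cluster led by Ptn and Fxyd2, and LATS1/2-KO cells in the one led by Areg and Plac8.

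In basal cells, the contractile outer layer, Pdgfa and Pdgfc fell and Pdgfb rose. Pdgfa measured 180 and 241 CPM in CTL (126 and 159 UMIs), the highest level of any class with at least 20 cells in both CTL libraries, and 94.0 and 86.1 in LATS1/2-KO. It fell by 1.32 on the log2 scale (SE 0.17, edgeR adjusted p = 0.000148). Pdgfc fell by 1.21 on the log2 scale (SE 0.20, edgeR adjusted p = 0.00114), from 64.2 and 75.7 CPM to 29.6 and 34.9. Pdgfb measured 32.8 and 21.2 CPM in CTL and 91.2 and 50.1 in LATS1/2-KO (1.25, SE 0.37, edgeR adjusted p = 0.02345). None of the 3 had overlapping groups. These were 3 of 5 members tested, against 31.6% of 9295 genes. All but 4 of the LATS1/2-KO basal cells lay in a cluster led by Krt5 and Slpi and all CTL ones in a cluster led by 1500015O10Rik and Cxcl14. With either LATS1/2-KO library left out no member passed (edgeR adjusted p = 0.07906 to 0.2385). The log2 fold changes without replicate 1 were then -1.41 for Pdgfa, -1.12 for Pdgfc and 0.76 for Pdgfb, and without replicate 2 they were -1.255, -1.335 and 1.64. Without CTL replicate 2 Pdgfb did not pass (0.96, edgeR adjusted p = 0.07923). Pdgfrb passed only when cells were gated singly (-1.46, edgeR adjusted p = 0.0425).

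The knockout effect on Pdgfa differed between luminal ER- and basal cells, since it rose in one and fell in the other: the difference of the log2 fold changes was 3.02 (SE 0.15, edgeR adjusted p = 2.07e-17, with the mouse as a term). With cells gated singly by marker UMIs this difference was 2.01 and the basal log2 fold change of Pdgfa was -0.61, and both still passed. In this comparison of effects 25.2% of 13716 genes passed. For Pdgfc the effect differed between luminal ER- and luminal ER+ cells by -2.06 (SE 0.21, edgeR adjusted p = 7.67e-05), where 28.3% of 14121 genes passed. The rise of Pdgfb was not shown to differ between luminal ER- and luminal ER+ cells (0.35, SE 0.19, edgeR adjusted p = 0.211) or basal cells (0.20, SE 0.27, edgeR adjusted p = 0.65). With the same gate these Pdgfb differences became -1.597 and -1.565 and passed the threshold (edgeR adjusted p = 0.003473 and 0.0001602). That gate kept 5055 of the 9412 luminal ER- cells, and in it the log2 fold change of Pdgfb in luminal ER- cells was 0.86 (edgeR adjusted p = 0.04333). Cells gated as basal were 982 of the basal class, and also 262 of the luminal ER- class, 52 of the Msln and Crct1 cluster and 45 low-depth cells.

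**Figure D3:**
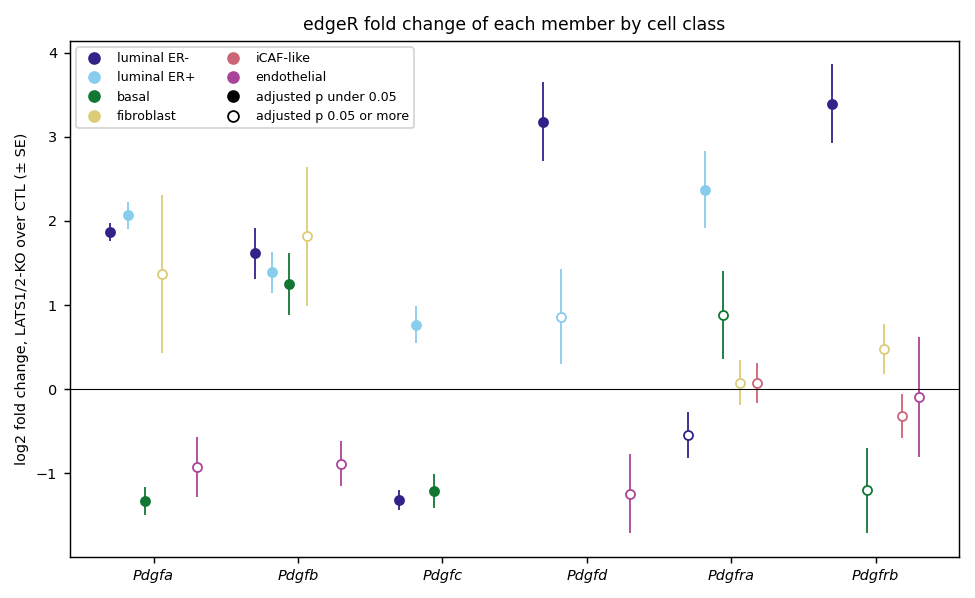
log2 fold change of each member, LATS1/2-KO over CTL, with an SE derived from edgeR's F statistic, for the 6 classes tested (n = 2 libraries per group). Filled points have an adjusted p under 0.05. Pdgfa lies above 0 in both luminal classes and below 0 in basal cells, and no point of the fibroblast, iCAF-like or endothelial classes is filled.

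EYFP marks cells in which Cre was active. EYFP+ luminal ER- cells of the LATS1/2-KO mice (493 and 604 cells with at least 1 EYFP UMI) were compared with EYFP- cells of the same mouse (1677 and 1587 cells). The latter can include recombined cells whose reporter was not captured: EYFP+ cells had medians of 14314 and 16992.5 UMIs against 7786 and 7795. Pdgfa measured 118 and 116 CPM in EYFP- cells and 158 and 153 in EYFP+ cells, higher in the EYFP+ cells of both mice (log2 fold change 0.40, SE 0.07, edgeR adjusted p = 5.57e-06, with the mouse as a block). Pdgfb measured 151 and 86.2 CPM in EYFP- cells and 182 and 155 in EYFP+ cells (0.54, SE 0.08, edgeR adjusted p = 3.76e-07). Pdgfc was lower in EYFP+ cells, at 14.0 and 15.2 CPM against 20.1 and 22.9, and Pdgfra was lower at 2.75 and 2.86 against 4.21 and 5.16. Their log2 differences were -0.58 (SE 0.12, edgeR adjusted p = 0.000136) and -0.765 (SE 0.25, edgeR adjusted p = 0.0136). Of the 6 members tested 4 passed, against 41.5% of 12652 genes. Other settings ended each call. With cells thinned to 2000 UMIs and EYFP called on the thinned counts, 208 and 280 cells were EYFP+. Pdgfc (-0.65, edgeR adjusted p = 0.2801) and Pdgfra (-0.0022, edgeR adjusted p = 0.9996) then did not pass. When EYFP was called before thinning, an alternative chosen after seeing the data, Pdgfra alone of these 4 did not pass (-0.36, edgeR adjusted p = 0.6449). DESeq2 did not pass Pdgfb (adjusted p = 0.1796), Pdgfc (0.0988) or Pdgfra (0.3649). With cells gated singly Pdgfa (0.25, edgeR adjusted p = 0.1576), Pdgfc (edgeR adjusted p = 0.197) and Pdgfra (0.4753) did not pass. Fitted without the mouse as a block, which leaves the difference between mice in the error, 0 members passed (the lowest edgeR adjusted p was 0.05521, for Pdgfc) and 897 genes did.

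EYFP+ cells lay more in the Ankrd1 cluster than EYFP- cells did: 85.0% and 79.1% of EYFP+ cells against 38.2% and 23.6% of EYFP- cells. Within each cluster the 2 kinds of cell were closer (the plot of ligands in EYFP- and EYFP+ cells). In the Ankrd1 cluster Pdgfa measured 148 and 148 CPM in EYFP- cells and 164 and 161 in EYFP+ cells, and the log2 difference was 0.12 (edgeR adjusted p = 0.163). In the Wfdc3 cluster it was 0.11 (edgeR adjusted p = 0.919). No member passed within either cluster, in fits that tested the same 4 sums over fewer cells. The Msln and Crct1 cluster, outside the class, had EYFP in 49.9% and 57.8% of its cells.

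**Figure D4:**
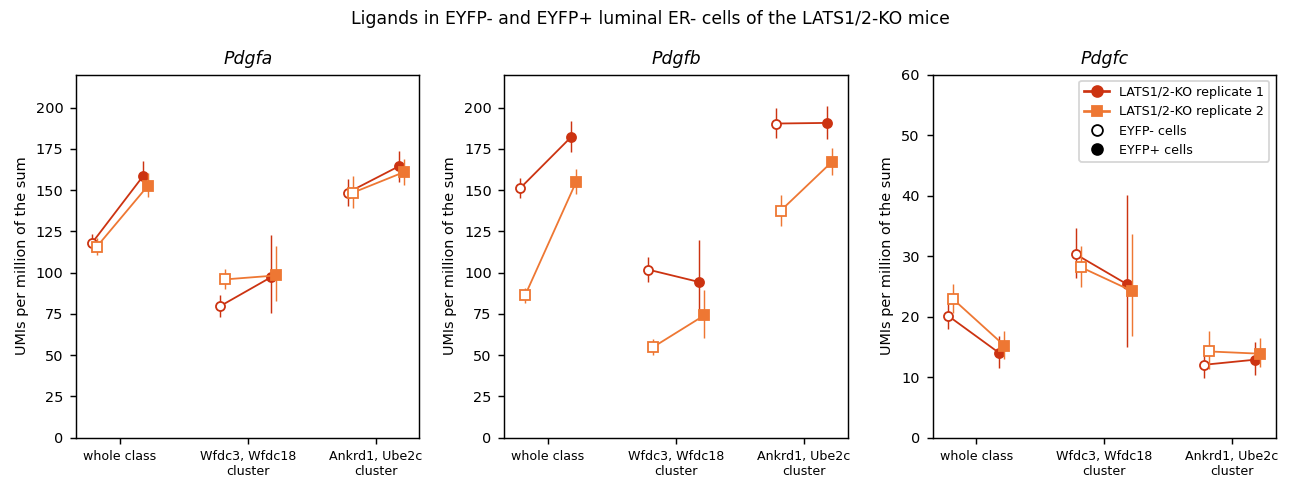
CPM of Pdgfa, Pdgfb and Pdgfc in EYFP- (open) and EYFP+ (filled) luminal ER- cells of each LATS1/2-KO mouse, for the whole class and within its 2 clusters; bars are 95% Poisson intervals and lines join the cells of 1 mouse. In the whole class Pdgfa and Pdgfb are higher and Pdgfc is lower in EYFP+ cells of both mice, and within the Ankrd1 cluster Pdgfa differs by less, 148 against 161 and 164.

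Among the cells that carried receptors, fibroblasts had Pdgfra and Pdgfrb and PVL-like cells had Pdgfrb almost alone. In iCAF-like cells Pdgfra measured 433 and 374 CPM in CTL and 472 and 358 in LATS1/2-KO, overlapping values with a log2 fold change of 0.07 (SE 0.23, edgeR adjusted p = 0.884). Pdgfrb measured 191 and 151 CPM in CTL and 122 and 144 in LATS1/2-KO, knockout below control before TMM scaling but overlapping after it, and the test did not pass (-0.32, SE 0.26, edgeR adjusted p = 0.475). CTL values rest on 58 and 25 cells, with 102 and 47 Pdgfra UMIs. Pdgfra UMIs were found in 64.0% to 79.5% of iCAF-like cells of a library and Pdgfrb UMIs in 43.3% to 48.3%. In macrophage-like cells, which should lack both, the LATS1/2-KO shares were 1.23% and 2.22% for Pdgfra and 2.15% and 3.104% for Pdgfrb.

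The myCAF-like cells, with 2 and 0 cells in the CTL libraries against 206 and 235 in LATS1/2-KO, fell into 2 clusters with different receptor levels (the plot of receptor levels in stromal sums). In the cluster led by Postn and Col3a1, Pdgfra measured 518 and 377 CPM and Pdgfrb 229 and 265. In the cluster led by Col1a1 and Col6a3, Pdgfra measured 290 and 469 CPM and Pdgfrb 557 and 606. Pdgfrb thus did not overlap between the 2 clusters, nor between either and the iCAF-like cells of the same mice, while Pdgfra overlapped across all of them. The Col1a1 and Col6a3 cluster had a median of 2900 UMIs per cell, against 9468 in the Postn and Col3a1 cluster. It held 8 myCAF markers and 6 of the next subtype list, against 8 and 4. At resolution 0.4 its cells shared a cluster with the PVL-like cells, and the part of this in its Pdgfrb level was not tested. Over the whole myCAF-like class Pdgfra was 423 ± 24.7 CPM and Pdgfrb 356 ± 21.3 (SD, n = 2). With iCAF-like and myCAF-like cells summed as fibroblasts, neither receptor passed the test: the log2 fold change of Pdgfra was 0.08 (SE 0.27, edgeR adjusted p = 0.916) and that of Pdgfrb 0.48 (SE 0.30, edgeR adjusted p = 0.42). Of 4 members tested in fibroblasts and 2 in iCAF-like cells, 0 passed, where 3.63% of 8682 and 12.8% of 5772 genes did. None of these 6 had an unadjusted p under 0.05 (the lowest was 0.0559, for Pdgfb in fibroblasts), and with DESeq2 0 members passed as well. Pdgfa in fibroblasts had a log2 fold change of 1.37 (edgeR adjusted p = 0.4687), and passed without LATS1/2-KO replicate 2 (1.96, edgeR adjusted p = 0.0252).

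**Figure D5:**
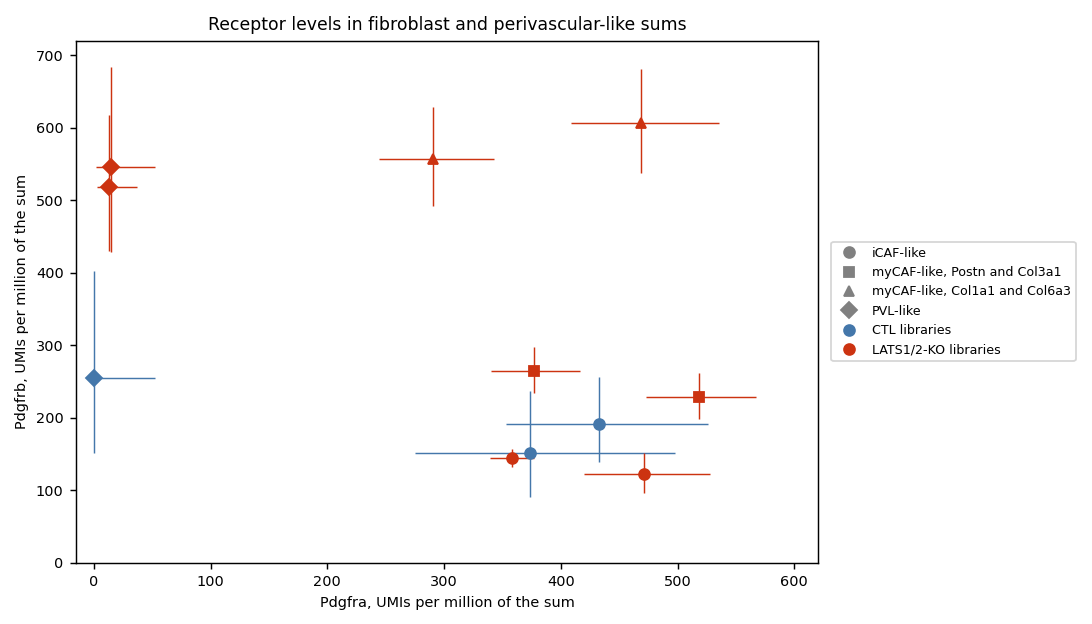
Pdgfra (x axis) against Pdgfrb (y axis), both in CPM, for each stromal cluster and library with at least 18 cells; bars are 95% Poisson intervals. PVL-like sums lie near 0 on the Pdgfra axis, and the myCAF-like cluster led by Col1a1 and Col6a3 lies above the iCAF-like sums on the Pdgfrb axis.

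PVL-like cells had Pdgfrb at 545 and 518 CPM in LATS1/2-KO, with Pdgfra at 14.5 and 12.6 CPM from 2 and 3 UMIs. The same cells had the highest Pdgfa level of all LATS1/2-KO classes, 567 and 539 CPM, found in 68.8% and 75.0% of cells. Pdgfa was high in the few CTL cells too, at 495 and 443 CPM from 18 and 7 cells, with Pdgfrb at 255 and 160 CPM. No test was made, since a CTL library had fewer than 20 cells. Smooth muscle genes (Tagln, Myl9, Myh11 and Acta2) led this cluster, of which Myh11 and Acta2 are also on the basal list. The myCAF-like cluster led by Col1a1 and Col6a3, whose cells shared a cluster with these cells at resolution 0.4, also held Pdgfa. It measured 206 CPM in replicate 1 and 53.5 in replicate 2, against 18.5 and 14.5 in the other myCAF-like cluster.

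Endothelial-like cells, the textbook source of PDGF-B for pericytes, had the highest Pdgfb level of the CTL classes with at least 20 cells in each library, 107 and 117 CPM, and 61.6 and 55.5 in LATS1/2-KO. The groups did not overlap, but the fall did not pass the threshold (log2 fold change -0.88, SE 0.27, edgeR adjusted p = 0.0692). Pdgfa measured 61.5 and 56.0 CPM in CTL and 27.7 and 32.5 in LATS1/2-KO (-0.92, SE 0.35, edgeR adjusted p = 0.149). Among classes with at least 20 cells in each library Pdgfd was highest in this class in both conditions, at 32.8 and 70.0 CPM in CTL (8 and 15 UMIs) and 15.0 and 26.2 in LATS1/2-KO (-1.24, SE 0.47, edgeR adjusted p = 0.143). Of the 4 members tested 0 passed, where 6.71% of 7571 genes did, though 3 had an unadjusted p under 0.05 (0.0057, 0.0198 and 0.0213). DESeq2 passed 0 members. Pdgfb fell by 1.27 on the log2 scale and passed (edgeR adjusted p = 0.0369) when cells with markers of a second compartment were left out. Macrophage-like cells of LATS1/2-KO had Pdgfa at 86.2 and 53.1 CPM, where free RNA would give 19.2 and 15.9. Over all libraries 206 of the 795 macrophage-like cells carried markers of a second compartment, and the level without them was not computed.

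The orders of levels leave out the low-depth epithelial cells, which in LATS1/2-KO measured 101 and 137 CPM of Pdgfa, 214 and 94.4 of Pdgfb and 44.5 and 40.7 of Pdgfc. Ordered by mean level over the LATS1/2-KO libraries, Pdgfa ran from PVL-like cells through the Msln and Crct1 cluster (182 ± 1.16 CPM), luminal ER- (131) and basal cells (90.03 ± 5.63), with no overlap between these neighbours. From basal through macrophage-like (69.6 ± 23.4), luminal ER+ (63.3 ± 5.59), myCAF-like (54.6 ± 39.5), endothelial-like (30.1 ± 3.45) and lymphocyte-like cells (0 and 38.6) to iCAF-like cells, each class overlapped with the next. The iCAF-like values, 6.16 and 17.5 CPM, stood beside a free RNA estimate of 22.4 and 14.2. Pdgfb ran from the Msln and Crct1 cluster (222 ± 42.1) to luminal ER- (138 ± 33.2), basal (70.6 ± 29.0) and endothelial-like cells (58.6 ± 4.31), and the last 2 of these overlapped. Among the other classes Pdgfc was highest in basal cells (32.3 ± 3.74), which lay below the low-depth cells and above luminal ER- cells (18.9 ± 1.15) with no overlap. In CTL, Pdgfc in basal cells was at 69.9 ± 8.15 CPM above 37.3 ± 5.48 in luminal ER-, and was at 0 in iCAF-like and endothelial-like cells. The floor of 3 UMIs there was 12.3 to 23.9 CPM.

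Over the 33 sums of a class in a library with at least 20 cells, the genes whose log2 CPM was most like Pdgfa were Nkiras2, Stk35 and Txnrd3 (Pearson r 0.842, 0.837 and 0.828). For Pdgfb they were Palmd, Cttnbp2nl and Gprc5a (0.816 to 0.802), for Pdgfc Dsp, Plekhb1 and Zfp316 (0.798 to 0.787), and for Pdgfd the endothelial phosphatase gene Ptprb, Fam189a2 and Hspa12b (0.909 to 0.896). For Pdgfra they were Bicc1, Mmp23 and Cyp1b1 (0.933 to 0.916), and for Pdgfrb Slit3, Vstm4 and the pericyte and fibroblast marker Cd248 (0.952 to 0.924). Sums from 1 library share its depth and free RNA, and these values describe likeness only. Among members, the receptors had r = 0.756 with each other, and Pdgfa had 0.575 with Pdgfb and 0.568 with Pdgfc.

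The other genes of the pathway were taken from 4 lists of 74 genes in all. In luminal ER- cells 12 of 14 tested genes of ligand processing and binding passed, 10 higher and 2 lower in LATS1/2-KO, with a median log2 fold change of 1.785 beside 0.01 over all genes. Pcsk6, a proprotein convertase, measured 0 and 0.259 CPM in CTL and 13.9 and 13.4 in LATS1/2-KO (CPM of the pathway genes are scaled by edgeR's TMM factors). Of 12 response genes that PDGF is known to induce in fibroblasts, 4 rose and 8 fell in the same class. The cytokine gene Ccl2 measured 0.687 and 0.519 CPM in CTL and 27.8 and 14.7 in LATS1/2-KO, and Hmga2, a chromatin factor gene, 0.129 and 0 against 3.01 and 2.34. The immediate-early genes Egr1 (1370 and 1760 CPM against 285 and 393), Jun and Fosl1 had the largest falls, by 2.21, 1.75 and 1.797 on the log2 scale (edgeR adjusted p of 9.09e-05, 2.391e-05 and 1.43e-05). Of the receptor signalling list 11 rose and 9 fell of 33, and of the down-regulation list 4 rose and 5 fell of 14, beside 64.8% of all genes called in this class.

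In luminal ER+ cells the ligand processing list had 9 genes higher and 1 lower of 14 tested, where 28.7% of all genes were called. Its gene Sparc, which encodes a PDGF-binding matrix protein, measured 3.48 and 1.74 CPM in CTL and 74.6 and 56.1 in LATS1/2-KO. Sparc was also among the leading genes of a myCAF-like cluster. Collagen levels in luminal ER+ cells, the basis of the free RNA estimate, were 2.92% and 3.26% of the library's in CTL. In LATS1/2-KO they were 8.63% and 7.10%. Pathway genes were not corrected for free RNA in any class. Of the response list, the hyaluronan synthase gene Has2 and Ccl2 rose (4.52 and 4.07 on the log2 scale) and the AP-1 gene Fosl1 fell (-1.45). Pik3r1, of the receptor signalling list, fell too (-1.06). In basal cells 16 of 69 tested genes of the 4 lists rose and 10 fell, where 31.6% of all genes were called. The co-receptor gene Nrp2 and the ubiquitin ligase gene Cblb were among those that rose (1.79 and 1.68 on the log2 scale), and Pik3r1, Egr1 and the cytokine-signalling inhibitor Socs3 had the largest falls (-2.61, -2.21 and -2.15). In EYFP+ against EYFP- cells 16 of 73 were higher and 31 lower, where 41.5% of all genes were called. Nrp2, the urokinase gene Plau and Pcsk6 were highest (1.075, 1.013 and 0.90), and the MAP kinase phosphatase gene Dusp6, Egr1 and Stat3 lowest (-1.27, -1.03 and -0.9963).

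In fibroblasts 2 of 68 tested pathway genes passed, beside 3.63% of all genes: the proprotein convertases Pcsk5 (38.5 and 54.6 CPM in CTL, 298 and 162 in LATS1/2-KO) and Furin (19.3 and 23.4 against 76.2 and 86.6), with edgeR adjusted p of 0.0264 and 0.0361, and 0 of 11 tested response genes did. In iCAF-like cells alone 3 of 60 rose and 4 fell, beside 12.8% of all genes called. Furin, Myc and the perlecan gene Hspg2 rose (1.79, 1.33 and 0.89), and Spry1, an inhibitor of receptor tyrosine kinase signalling, Pdgfrl and Pik3r1 had the largest falls (-2.17, -1.805 and -1.45). In endothelial-like cells Thbs1, which encodes thrombospondin, rose from 37.7 and 4.69 CPM to 214 and 293, Sparc rose by 1.33 on the log2 scale, and the co-receptor gene Nrp1 and the response genes Fos and Ccnd1 fell (-1.75, -1.52 and -2.001). The median log2 fold change over the 62 genes tested there was 0.0039, beside 0.02 over all genes.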

How the data were processed

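Single-cell 3′ RNA libraries (10x v3) of live-sorted mammary cells from 4 mice were analysed. The authors deposited whole-number UMI counts per gene and cell barcode for each library, aligned to mm10. The submitters' processing notes name Cell Ranger 3.1.0 and the deposited matrix headers 6.1.2; which one made the files was not settled. Raw counts were filtered (over 500 genes, under 20% mitochondrial UMIs, the limits of the study's methods), normalised with SCTransform (Seurat 5.3.0, sctransform 0.4.2) and clustered on 20 components of 3000 variable genes without the 6 members, at resolution 0.4, with fibroblast and perivascular subtypes at 0.8. A marker counted when it reached 10 CPM and 2 times a reference level. Stromal clusters used the pool of all cells as reference and needed at least 3 markers of a list and more than any epithelial list. Epithelial clusters used the stromal clusters as reference and needed at least 3 markers and at least 2 more than the next list. An epithelial cluster was set apart as low depth when none of its 10 leading genes was on its best list. Its median UMIs also had to lie under the average of its cells' library medians divided by 3. Fibroblast and perivascular subtypes took the list with the largest share of its markers counted against the pool, with no minimum. No doublet caller was run, and cells with markers of a second compartment were left out in an alternative.

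UMIs were summed per library and class, and classes with at least 20 cells in every library were tested with edgeR 4.0.16 in R 4.3.3 (TMM factors, filterByExpr, quasi-likelihood F test, Benjamini-Hochberg over all genes tested, threshold 0.05). Each SE was derived as the absolute log2 fold change over the square root of the F statistic. The mouse was a block for EYFP+ against EYFP- cells and for differences of effect between classes. Fold changes use TMM factors and printed member levels use totals: in luminal ER- cells the median log2 fold change over all genes was 0.01 with TMM and 0.35 with totals, where 70.9% of calls were higher against 51.7% with TMM. Sums held 21682473 to 27262040 UMIs in luminal ER- cells and 660588 to 2893567 in basal cells. Free RNA was estimated as the level of other compartments' genes in a class (3 collagens for epithelial classes, 6 luminal genes for the rest) over their level in the whole library, so transcripts of those genes made by the class raise the estimate. Poisson and exact binomial intervals cover counting error only. Each library is 1 mouse, and an exact permutation test of 2 against 2 cannot go below p = 0.33. The labels did not say that a replicate number is shared by a litter, batch or day. The edgeR step was tested on simulated counts. Alternatives were DESeq2 1.42.0, other scaling, filters, gates, depth (thinning with scuttle 1.12.0), a replicate block and libraries left out. The members, the marker and pathway lists and the clustering choices were made with earlier results of these data known. Genes named are the members, at most 3 highest and 3 lowest pathway genes per comparison that passed with libraries that did not overlap, and the 3 genes most like each member. Values of some genes that this rule names are not reported here. Promoter windows are from RefSeq, with none listed for Pdgfb, and Pdgfrb's was not used.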

Additional observations from a re-analysis of the deposited data

Results flagged for a closer look

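By edgeR's test of the difference of log2 fold changes, with the mouse as a term, the knockout effect differed for 2 of the 6 members between luminal ER- and luminal ER+ cells, where 28.3% of all genes passed, and for 4 of the 6 between luminal ER- and basal cells, where 25.2% did. Luminal ER- against basal cells differed for Pdgfa by 3.02 (SE 0.15, adjusted p = 2.07e-17), and luminal ER- against luminal ER+ cells for Pdgfc by -2.06 (SE 0.21, adjusted p = 7.67e-05), as given above. Pdgfra differed by -2.91 against luminal ER+ (SE 0.49, edgeR adjusted p = 0.00159) and by -1.60 against basal cells (SE 0.49, edgeR adjusted p = 0.0144). Against basal cells Pdgfd differed by 5.33 (SE 1.53, edgeR adjusted p = 0.00872) and Pdgfrb by 4.37 (SE 0.95, edgeR adjusted p = 0.000571). The Pdgfd value rests on 1 and 3 UMIs in CTL and 0 and 3 in LATS1/2-KO basal cells, so its size is no measured fold. The receptor values rest on levels of under 20 CPM. In LATS1/2-KO luminal ER- cells Pdgfra measured 3.73 and 4.22 CPM beside a free RNA estimate of 2.19 and 2.94. Pdgfrb measured 1.57 and 1.32 CPM there beside an estimate of 1.44 and 1.78. The differences of effect were not tested with free RNA subtracted. With cells gated singly the Pdgfra differences did not pass (edgeR adjusted p = 0.069 and 0.9365).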

How the results depend on the processing

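Over all alternatives 387 of the 433 member log2 fold changes recomputed kept their direction and their side of the threshold, 36 lost it, 6 gained it and 4 reversed. The reversed ones were EYFP+ against EYFP- Pdgfra within the Wfdc3 cluster (0.0398) and Pdgfc within the Ankrd1 cluster (0.01855), and the Pdgfb difference of effects with cells gated singly, -1.597 against luminal ER+ and -1.565 against basal cells. The causes were not tested.

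With each library left out in turn, genes called ranged from 6986 to 8402 in luminal ER- cells (5 to 6 members), 1588 to 3625 in luminal ER+ (1 to 4), 0 to 2144 in basal (0 to 3), 0 to 586 in fibroblasts (0 to 1), 340 to 564 in iCAF-like (0) and 0 to 256 in endothelial-like cells (0), where the lone library is assumed to vary like the other group. Thinned sums gave 2092 genes and 2 members in luminal ER+, 200 genes in fibroblasts, 230 in iCAF-like and 264 in endothelial-like cells. DESeq2 gave 1484 genes in basal, 389 in iCAF-like and 257 in endothelial-like cells. Without the low-count filter 902 genes were called in fibroblasts and 0 in endothelial-like cells, and without cells carrying markers of a second compartment 1 endothelial member was (Pdgfb, -1.27, edgeR adjusted p = 0.03692). For EYFP+ against EYFP- cells the counts were 1242 genes and 2 members with cells thinned to 2000 UMIs, 2617 genes with EYFP called before thinning (an alternative chosen after seeing the data), 1706 and 1 with DESeq2, 1545 and 1 with cells gated singly, and 97 and 0 or 621 and 0 within the Wfdc3 or the Ankrd1 cluster (also chosen after seeing the data). Gating singly gave 2475 genes for the difference of effects against luminal ER+.

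The labels did not say whether replicate numbers pair the samples. Correlations of deviations ran from -0.0412 to 0.05, and 2 pairs are too few to settle it. With a replicate block 8643 genes were called in luminal ER-, 3939 in luminal ER+, 2768 in basal, 864 in fibroblasts, 615 in iCAF-like and 646 in endothelial-like cells, and no member call changed in these classes. Without the mouse as a replicate block, the Pdgfra difference of effects between luminal ER- and basal cells did not pass (-1.61, edgeR adjusted p = 0.1046). Without the mouse as a replicate block the EYFP comparison gave 897 genes and 0 members. Gating fibroblasts singly was not run, since a CTL library then had under 20 cells. Subtraction of free RNA moved 48 of 114 levels by more than 1 SD, thinning 88 of 114 shares, and resolution 0.4 in place of 0.8 moved 5 of 12 stromal levels, with Pdgfra of the cluster then holding PVL-like cells at 228 and 315 CPM in LATS1/2-KO. Low counts limit Pdgfd everywhere and every CTL stromal value.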
